A study of Mus musculus with 16 samples.

Results

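The regions described here were stretches of chromatin of 30000 bp or more, each called as 1 region of acetylated lysine 5 of histone H4 (H4K5Ac) in undifferentiated MC3T3-E1 cells. They held the centres of fewer than 4 peaks of the transcription factor RUNX2. They were picked from the authors' peak lists by width and by RUNX2 count, on chromosomes 1 to 19 and X of the mouse assembly mm9. The rule found 1349 such domains among 41585 H4K5Ac regions. It was met by 1349 of the 1643 regions of that width, and the other 294, with 4 or more RUNX2 peaks, served as the comparison and are called RUNX2-rich wide domains.

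MC3T3-E1 is a pre-osteoblast line from mouse calvaria. Chromatin immunoprecipitation with sequencing had been done with 7 antibodies in 2 states of the line: cells after 15 days in 10 mM glycerol-2-phosphate and 50 ug/mL ascorbic acid, and undifferentiated cells. Both states had received ethanol vehicle for 3 h, and were used at passages 5 to 12, and mineralised matrix was taken off the differentiated cultures before chromatin preparation. Each antibody and state was 1 list of peaks merged over replicates, so the spread between replicates could not be measured and every test below compares shares of regions or peaks within these lists. The line is a model of osteoblast maturation outside bone, and its state is given by the culture medium alone. H3K4me3, the mark of active promoters, lay within 1 kb of a start of 6 of 8 osteoblast marker genes in differentiated cells and of 6 of 8 in undifferentiated cells. It lay at none of 8 adipocyte, 8 muscle, 6 endothelial and 7 neural marker genes in either state, and at 1 of 7 haematopoietic and osteoclast markers in differentiated cells and none in undifferentiated cells.

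RUNX2 is the runt-domain factor without which osteoblasts do not form, and it binds DNA with its partner CBFB at sites built around the letters TGTGGT. C/EBPβ is a basic leucine zipper factor that works in osteoblasts as well as in fat and liver cells. Acetylation of histone tails marks open and active chromatin, H3K4me1 marks enhancers, H3K9Ac marks active promoters and enhancers, and H3K36me3 is laid down along the bodies of transcribed genes. Broad acetylated domains with many bound factors are often seen at genes that define a cell type.

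By the rule itself, the 1349 domains covered 65.6 Mb, which was 19.3% of all H4K5Ac bases, and they held 1807 undifferentiated RUNX2 peaks. No RUNX2 peak lay in 328 of them, 1 in 455, 2 in 346 and 3 in 220, while a further 126 wide domains had 4 and were left out. Their RUNX2 density was 0.275 peaks per 10 kb, against 0.654 in RUNX2-rich wide domains and 0.362 over all H4K5Ac regions. The median width was 40788 bp in the few-RUNX2 domains and 70417 bp in the RUNX2-rich ones. The narrowest had 30015 bp, and the widest region left out on width had 29985 bp. The authors' H4K5Ac score had a median of 203 in the few-RUNX2 domains and 530 in the RUNX2-rich ones, so the 2 kinds differed in signal as well as in RUNX2 count. These values chose the domains or follow from the choice, and they carry no test.

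**Figure D1:**
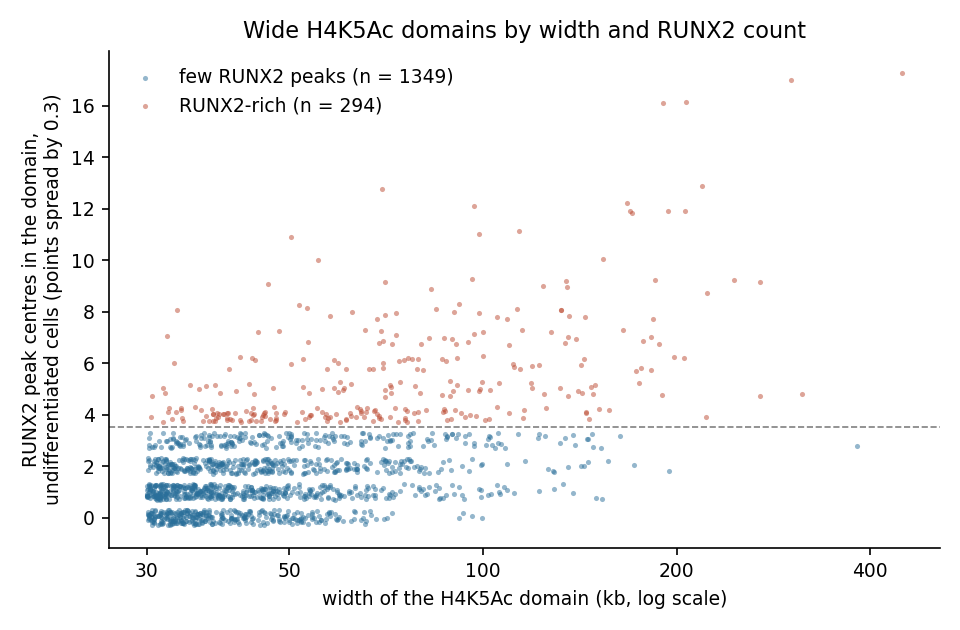
Each point is a wide H4K5Ac domain, with its width in kb on a log axis and its number of undifferentiated RUNX2 peak centres (points spread by up to 0.3 upwards or downwards so that they can be told apart). The 1349 few-RUNX2 domains lie under the dashed line at widths up to 382 kb, and the 294 RUNX2-rich domains lie above it with up to 17 peaks.

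A few of the domains show the forms that RUNX2 binding took. The widest lies over Glis3, a zinc finger transcription factor, and kept 2 of its 3 RUNX2 peaks in differentiated cells. The fourth widest lies around Dcn, which encodes the matrix proteoglycan decorin, and lost all 3. A domain at Ptgis, the prostacyclin synthase gene, kept both of its peaks and gained 3. The 11 RUNX2 peaks are shown, with their coordinates, from mm9 on the plus strand, with TGTGGT or its reverse complement ACCACA in capitals. They include every RUNX2 peak of the Dcn and Ptgis domains and the 3 undifferentiated peaks of the Glis3 domain.
Glis3 peak 1, chr19:28599959-28600159, kept: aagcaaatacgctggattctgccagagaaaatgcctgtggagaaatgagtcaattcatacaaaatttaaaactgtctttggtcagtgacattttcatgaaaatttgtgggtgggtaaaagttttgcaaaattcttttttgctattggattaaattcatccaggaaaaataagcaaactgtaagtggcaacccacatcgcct
Glis3 peak 2, chr19:28666379-28666579, kept: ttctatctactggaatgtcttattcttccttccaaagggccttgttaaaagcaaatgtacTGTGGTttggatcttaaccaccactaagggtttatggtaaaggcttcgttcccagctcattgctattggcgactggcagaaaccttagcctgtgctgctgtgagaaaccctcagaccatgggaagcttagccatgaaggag
Glis3 peak 3, chr19:28720873-28721073, lost: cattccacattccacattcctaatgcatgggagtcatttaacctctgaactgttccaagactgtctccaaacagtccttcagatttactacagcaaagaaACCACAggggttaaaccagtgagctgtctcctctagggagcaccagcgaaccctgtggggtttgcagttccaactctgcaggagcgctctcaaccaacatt
Dcn peak 1, chr10:96860015-96860215, lost: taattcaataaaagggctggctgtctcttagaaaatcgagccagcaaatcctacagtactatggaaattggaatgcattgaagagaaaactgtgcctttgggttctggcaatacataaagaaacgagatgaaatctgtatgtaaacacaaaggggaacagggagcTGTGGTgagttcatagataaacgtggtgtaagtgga
Dcn peak 2, chr10:96872579-96872779, lost: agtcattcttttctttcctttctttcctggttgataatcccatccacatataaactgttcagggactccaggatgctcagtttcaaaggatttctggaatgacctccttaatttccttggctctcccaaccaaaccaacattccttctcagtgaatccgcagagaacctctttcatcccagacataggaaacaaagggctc
Dcn peak 3, chr10:96979145-96979345, lost: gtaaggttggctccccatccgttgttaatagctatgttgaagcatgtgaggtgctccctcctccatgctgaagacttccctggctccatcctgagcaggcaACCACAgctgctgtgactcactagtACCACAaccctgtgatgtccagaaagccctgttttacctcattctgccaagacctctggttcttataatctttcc
Ptgis peak 1, chr2:167047767-167047967, gained: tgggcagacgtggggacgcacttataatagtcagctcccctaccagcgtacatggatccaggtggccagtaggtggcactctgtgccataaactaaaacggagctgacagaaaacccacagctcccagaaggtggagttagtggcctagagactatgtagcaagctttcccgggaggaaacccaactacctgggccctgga
Ptgis peak 2, chr2:167057722-167057922, kept: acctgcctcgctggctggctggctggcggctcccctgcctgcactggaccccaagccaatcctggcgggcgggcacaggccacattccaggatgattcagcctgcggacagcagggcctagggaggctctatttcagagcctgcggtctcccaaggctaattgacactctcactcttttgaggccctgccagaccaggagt
Ptgis peak 3, chr2:167069731-167069931, gained: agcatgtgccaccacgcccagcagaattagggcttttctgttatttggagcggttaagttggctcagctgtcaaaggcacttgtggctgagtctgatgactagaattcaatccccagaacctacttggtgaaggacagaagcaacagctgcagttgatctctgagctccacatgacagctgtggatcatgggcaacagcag
Ptgis peak 4, chr2:167091066-167091266, kept: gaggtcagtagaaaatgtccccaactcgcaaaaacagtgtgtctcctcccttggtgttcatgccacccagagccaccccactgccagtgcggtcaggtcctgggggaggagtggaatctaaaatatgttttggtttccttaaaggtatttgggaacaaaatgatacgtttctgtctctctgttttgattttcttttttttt
Ptgis peak 5, chr2:167096815-167097015, gained: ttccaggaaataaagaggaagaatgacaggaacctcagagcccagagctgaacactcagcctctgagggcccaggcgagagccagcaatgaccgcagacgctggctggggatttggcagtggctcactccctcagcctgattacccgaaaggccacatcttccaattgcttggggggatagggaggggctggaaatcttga
All 3 Glis3 peaks were intronic, between 33.6 and 154.5 kb downstream of the outermost start of the gene, which runs on the minus strand. Dcn peaks 1 and 2 were intergenic, 82.1 and 69.6 kb upstream of the gene's outermost start, and Dcn peak 3 was intronic. Ptgis peaks 1 and 2 were intronic, and peaks 3, 4 and 5 were intergenic, from 3.73 to 30.8 kb upstream of that gene, which also runs on the minus strand. The motif letters stood in 4 of the 11 peaks, and none of the 5 Ptgis peaks held them. All 6 peaks of the Glis3 and Dcn domains overlapped a C/EBPβ peak in undifferentiated cells.

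Over all 1807 RUNX2 peaks in the few-RUNX2 domains, 57.3% (exact Clopper-Pearson 95% interval 55.0 to 59.6) held TGTGGT on either strand. Windows of the same length 1 kb downstream held it in 15.2% of cases. In RUNX2-rich domains the share was 53.4%, which was lower by 3.87 percentage points (Newcombe 95% interval 0.567 to 7.17, few-RUNX2 minus RUNX2-rich). Within the few-RUNX2 domains the letters stood in 61.8% of the 773 peaks kept in differentiated cells and in 53.9% of the 1034 that were lost, a difference of 7.97 points (interval 3.37 to 12.5). Over their whole length the few-RUNX2 domains had a median of 8.12 of these motifs per 10 kb, counted on both strands, and RUNX2-rich domains 8.69. Intervals here and below cover counting error only, and peaks and domains are not replicates of a condition.

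The widest domain, chr19:28381410-28763557, spanned 382 kb, and 97.7% of it lay in the body of Glis3. It held 24 called H4K5Ac regions in differentiated cells, which covered 75.5% of it. RUNX2 had 3 peaks there in each state, whereas C/EBPβ had 2 peaks in differentiated cells and 15 in undifferentiated cells, the highest C/EBPβ count of all 1349 domains. H3K36me3 covered 78.4% of it in differentiated cells and 97.0% in undifferentiated cells.

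In the Dcn domain, chr10:96824681-96988263, H4K5Ac stayed on 99.4% of its bases in differentiated cells as a single region. RUNX2 had no peak in differentiated cells and 3 in undifferentiated cells, and C/EBPβ had 8 in differentiated cells and 12 in undifferentiated cells. H3K36me3 covered 38.9% in differentiated cells and 92.8% in undifferentiated cells, and no H3K4me3 region touched the domain in either state. The Dcn body made up 23.6% of the domain, at 117.6 to 156.1 kb from the domain start. A differentiated H3K36me3 region at 119.4 to 162.4 kb still lay over most of that body, so the lower coverage was mostly outside the gene. The Ptgis domain, chr2:167043777-167107199, stood out for H3K9Ac, which covered 75.5% of it in differentiated cells and 8.12% in undifferentiated cells. No H3K4me3 or H3K36me3 region touched that domain in either state, and a start of Gm17544 also lay in it. RUNX2 had 5 peaks there in differentiated cells and 2 in undifferentiated cells.

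**Figure D2:**
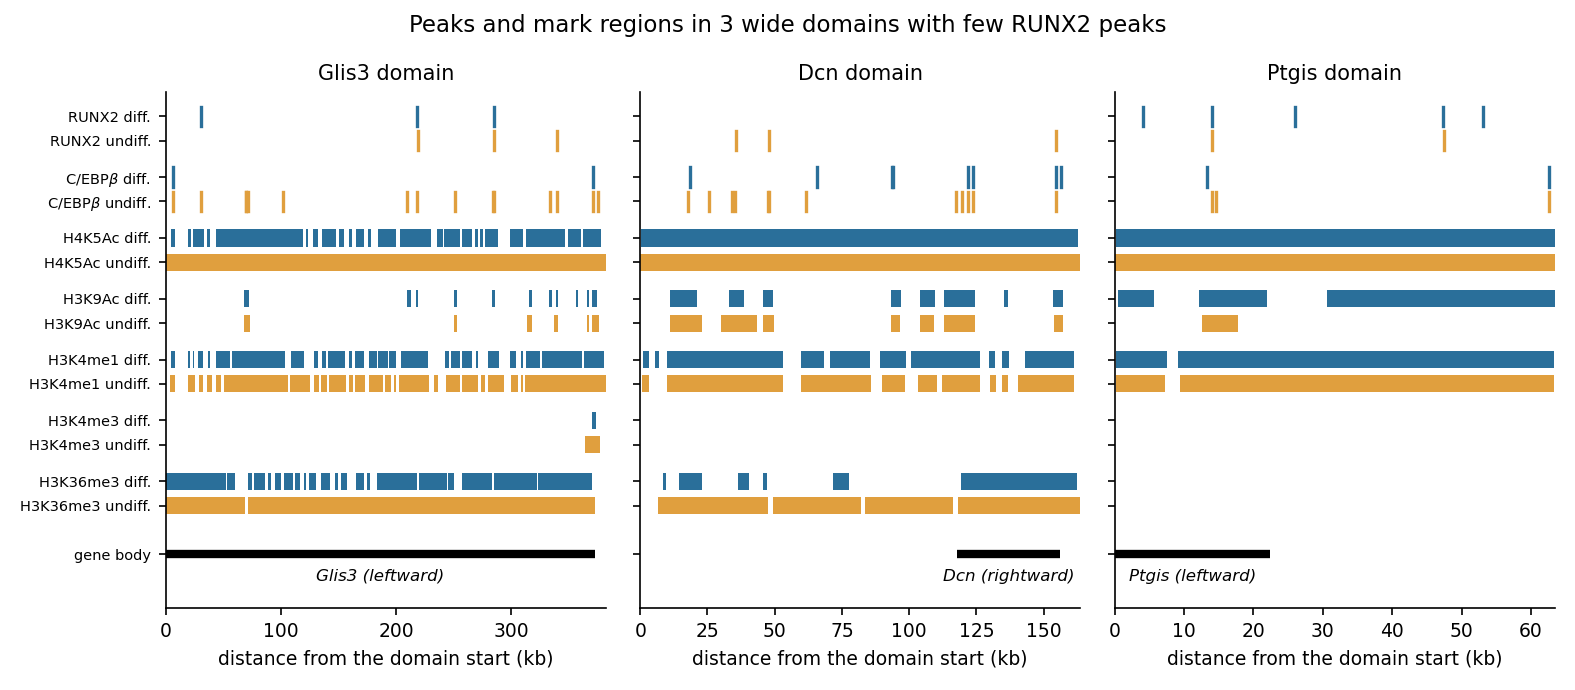
Peaks (ticks) and mark regions (bars) of the deposited lists in 3 few-RUNX2 wide domains, drawn by distance from the domain start in kb, with differentiated cells (blue) above undifferentiated cells (orange) for each antibody and the gene body in black. The Glis3 domain lost most of its 15 C/EBPβ peaks, the Dcn domain lost its 3 RUNX2 peaks, and H3K9Ac covered 75.5% of the Ptgis domain in differentiated cells and 8.12% in undifferentiated cells.

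Of the 10 widest domains, 3 held a protein-coding transcription start site (TSS): Glis3, Dcn, and Fzd6 with Baalc. The Fzd6 and Baalc domain (153 kb, chromosome 15), named for a frizzled Wnt receptor and its neighbour, had no RUNX2 peak in differentiated cells and 1 in undifferentiated cells. A domain over Pappa2, which encodes a protease of insulin-like growth factor binding proteins, and Astn1 (153 kb, chromosome 1) had 5 RUNX2 peaks in differentiated cells and 3 in undifferentiated cells. It kept 99.9% of its H4K5Ac, and H3K9Ac covered 48.4% of it in differentiated cells and 19.99% in undifferentiated cells. A domain of 148 kb on chromosome 7 lay 208 kb from the nearest TSS, that of Fgfr2, a fibroblast growth factor receptor. It had 2 RUNX2 peaks in differentiated cells and 3 in undifferentiated cells.

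Several of the widest domains were far from any protein-coding gene. The second widest, chr2:115043723-115238260, was 169 kb from the nearest protein-coding TSS and had H3K4me1 on 45.7% of its bases in differentiated cells and 16.1% in undifferentiated cells. A pair on chromosome 3, of 172 and 157 kb, lay 774 and 418 kb from a TSS. They kept H4K5Ac on 48.2% and 42.1% of their bases and lost both of their 2 RUNX2 peaks each. H3K36me3 covered 39.3% and 27.1% of these 2 in undifferentiated cells although no protein-coding gene body lay there, and none of either in differentiated cells.

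The widest domains with no undifferentiated RUNX2 peak lay over genes too. Pdlim5, which encodes a PDZ and LIM domain protein of the actin cytoskeleton, had a domain of 99.5 kb with 6 C/EBPβ peaks in differentiated cells and 7 in undifferentiated cells. A domain of 96.3 kb lay wholly inside Pdgfc, a platelet-derived growth factor gene, and had no H3K9Ac in either state. The others were at Tnfrsf19 (93.1 kb), a receptor of the tumour necrosis factor family, mostly inside Arl15 (91.8 kb), a small GTPase gene, and at Igf1 (72.3 kb), which encodes insulin-like growth factor 1. Of the 5, the Igf1 domain was the single one with a RUNX2 peak in differentiated cells.

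Fewer few-RUNX2 domains than RUNX2-rich ones held the start of a gene. A protein-coding TSS lay in 492 of the 1349 (36.5%, interval 33.9 to 39.1), against 57.8% of RUNX2-rich domains and 25.7% of all H4K5Ac regions, most of which are much narrower. The difference was -21.4 percentage points (few-RUNX2 minus RUNX2-rich, interval -27.4 to -15.1). It was -27.4 points among domains under 40000 bp wide, of which 39 were RUNX2-rich, and -12.8 points with a limit of fewer than 2 RUNX2 peaks. Those were the extremes of the alternatives run. Starts of 3 or more genes lay in 1.48% of few-RUNX2 domains and 7.48% of RUNX2-rich ones, beside 0.358% of all H4K5Ac regions. That difference of -6.00 points (interval -9.62 to -3.39) was -3.87 points (-15.7 to 0.0281) among domains under 40000 bp, where the interval no longer left out 0.

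The few-RUNX2 domains fell into 3 main positions. A TSS lay in 492, a further 308 (22.8%) had no TSS but lay with 50% or more of their bases in a gene body, and 517 (38.3%) touched no protein-coding gene at all, while 32 had under 50% in a gene. The gene body position without a TSS was that of 13.3% of RUNX2-rich domains and 36.6% of H4K5Ac regions under 30000 bp. No protein-coding gene was touched by 23.8% of RUNX2-rich domains and 36.8% of those narrower regions. In the few-RUNX2 domains H3K36me3 differed between these positions: its median coverage in undifferentiated cells was 54.5% where a TSS lay in the domain, 63.2% inside gene bodies and 0% away from genes. H4K5Ac in differentiated cells covered medians of 84.7%, 86.8% and 83.7% at the same 3 positions. The bodies of 890 genes overlapped the domains. Lpp, a focal adhesion protein gene, carried 7 of them over 414 kb, which was 69.1% of the gene, and H3K36me3 covered 99.1% of those 7 in differentiated cells and 99.3% in undifferentiated cells. Lpp was picked here after its values had been seen.

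Over all protein-coding gene names, 617 of 22208 (2.78%) had a TSS in a few-RUNX2 domain, and the lists below are read beside that share. Of 29 genes of TGFβ, BMP and Wnt signalling, 12 (41.4%) had a TSS there, and 2 had one in a RUNX2-rich domain. The ligands were Tgfb2, Tgfb3 and Bmp4, the receptors included Tgfbr1, Tgfbr2, Bmpr1a, Acvr1, Lrp5 and Lrp6, and Smad3 is a signal transducer. The 36.9 kb Smad3 domain had 3 RUNX2 peaks in each state, all 3 kept, and H3K9Ac covered 43.7% of it in differentiated cells and none in undifferentiated cells. No H3K4me3 region lay in that domain, so the start inside it was an annotated one without the promoter mark. Around Bmp4 (48.2 kb) RUNX2 had no peak in either state, and H4K5Ac remained on 48.2% of the bases.

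Among 24 genes of bone matrix and mineralisation, 8 (33.3%) started in a few-RUNX2 domain and 4 in a RUNX2-rich one. The 8 were Col1a1 and Col5a2, which encode fibrillar collagen chains, Sparc, Dmp1, Omd, Dcn, Postn and Fn1. The 71.6 kb Col1a1 domain kept 97.4% of its H4K5Ac and had 3 RUNX2 peaks in each state. The 45.8 kb domain of Sparc, which encodes osteonectin, had no RUNX2 peak in differentiated cells and 3 in undifferentiated cells, although H4K5Ac stayed on all of its bases and H3K9Ac covered 73.7% in differentiated cells and 47.5% in undifferentiated cells. Dmp1, a matrix protein gene of osteocytes, had H3K9Ac on 18.9% of its 58.7 kb domain in differentiated cells and none in undifferentiated cells. Postn, the periostin gene, kept both RUNX2 peaks in a domain of 109 kb, and C/EBPβ had 4 peaks there in differentiated cells and 8 in undifferentiated cells.

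RUNX genes themselves lay in such domains: 4 of 10 genes of the RUNX family and its co-factors (Runx1, Runx2, Cbfb and the co-repressor Hdac4). The Runx1 domain (38.2 kb) was among the 5 with most H3K4me3, which covered 19.7% in differentiated cells and 62.4% in undifferentiated cells, and it kept all 3 RUNX2 peaks. Runx2 had annotated starts in both kinds of wide domain. Its few-RUNX2 domain of 82.4 kb had 1 RUNX2 peak, kept, with C/EBPβ at 3 in differentiated cells and 2 in undifferentiated cells. The Cbfb domain (39.4 kb) had no RUNX2 peak in differentiated cells and 2 in undifferentiated cells.

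Of 23 osteoblast transcription factor genes, 5 were in few-RUNX2 domains (Runx2, Dlx5, Dlx6, Fosl2 and Prrx1) and 4 in RUNX2-rich ones, among them Sp7. Dlx5 and Dlx6, a pair of distal-less homeobox genes, shared a 41.2 kb domain without RUNX2 peaks that kept 52.0% of its H4K5Ac. Of 28 Hox genes, 9 were in few-RUNX2 domains and none in RUNX2-rich ones. The 9 lay in only 3 domains, so they are not 9 separate cases. The 33.8 kb domain of Hoxb7 and Hoxb9 had no H4K5Ac left in differentiated cells while H3K9Ac covered 46.0% of it in differentiated cells and 6.17% in undifferentiated cells.

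None of 20 housekeeping, 33 cytosolic ribosomal protein and 22 splicing, chromatin and RNA processing genes started in a few-RUNX2 domain, which allows shares of up to 15.0%, 9.09% and 13.6% (3 genes of each list). Those limits lie above the 2.78% over all genes, so a difference from it was not detectable with lists of this size. All 20 of the housekeeping and all 33 of the ribosomal protein genes started inside H4K5Ac regions of some width. Of 22 cell cycle genes 1 (Cdkn1b, an inhibitor of cyclin-dependent kinases) was in a few-RUNX2 domain, of 22 immediate early and AP-1 genes 4 (Fosl2, Ier3, Ier5 and Myc), and of 13 replication-dependent histone genes 2 in 1 domain (Hist1h1c and Hist1h3b). None of the adipocyte, muscle, haematopoietic, endothelial or neural markers did. The osteoblast markers had 4 of 8, namely Col1a1, Runx2, Sparc and Postn.

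MicroRNA genes were also present: 19 named ones lay in 15 few-RUNX2 domains. With unnamed ones, 40 of 1576 annotated microRNA genes started there, beside 617 of 22208 protein-coding gene names (2.78%). Mir204, whose product is known to target Runx2, lay in a 39.3 kb domain inside Trpm3 with no RUNX2 or C/EBPβ peak in either state and H3K36me3 on none of its bases in differentiated cells and all of them in undifferentiated cells. Mir133b and Mir206, known from skeletal muscle, shared a 35.0 kb domain that had no RUNX2 peak in differentiated cells and 2 in undifferentiated cells. Mir205 lay in a 105 kb domain where RUNX2 had 3 and C/EBPβ 6 peaks in undifferentiated cells and neither had one in differentiated cells. These were picked after their values had been seen.

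In undifferentiated cells H3K9Ac, H3K4me3 and H3K36me3 were each found in a smaller share of few-RUNX2 than of RUNX2-rich domains. H3K9Ac covered 20% or more of the bases in 18.3% of few-RUNX2 domains (interval 16.3 to 20.5), against 45.9% of RUNX2-rich domains and 26.1% of all H4K5Ac regions. The difference was -27.6 points (interval -33.7 to -21.6). Over the alternatives run it lay between -50.4 and -16.2 points. The first came from domains under 40000 bp (interval -62.5 to -34.5), of which 39 were RUNX2-rich. The second came from mark regions of above-median score. An H3K4me3 region touched 22.5% of few-RUNX2 and 45.2% of RUNX2-rich domains, beside 16.1% of all H4K5Ac regions, a difference of -22.7 points (interval -28.8 to -16.7). Of the 304 few-RUNX2 domains with H3K4me3, 294 held a TSS. Conversely, 294 of the 492 domains with a TSS had H3K4me3 (59.8%), so many of the starts were not marked as active promoters. That was so in other regions too. H3K4me3 lay in 6071 of the 10005 H4K5Ac regions under 30000 bp with a TSS and in 125 of the 170 such RUNX2-rich domains.

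H3K36me3 covered 20% or more of the bases in 46.2% of few-RUNX2 and 64.3% of RUNX2-rich domains, beside 37.1% of all H4K5Ac regions, a difference of -18.1 points (interval -24.0 to -11.9). H3K4me1 covered a median of 81.2% of the bases of few-RUNX2 domains and 89.7% of RUNX2-rich ones. Only 11 of the 1349 had none of that enhancer mark in undifferentiated cells.

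**Figure D3:**
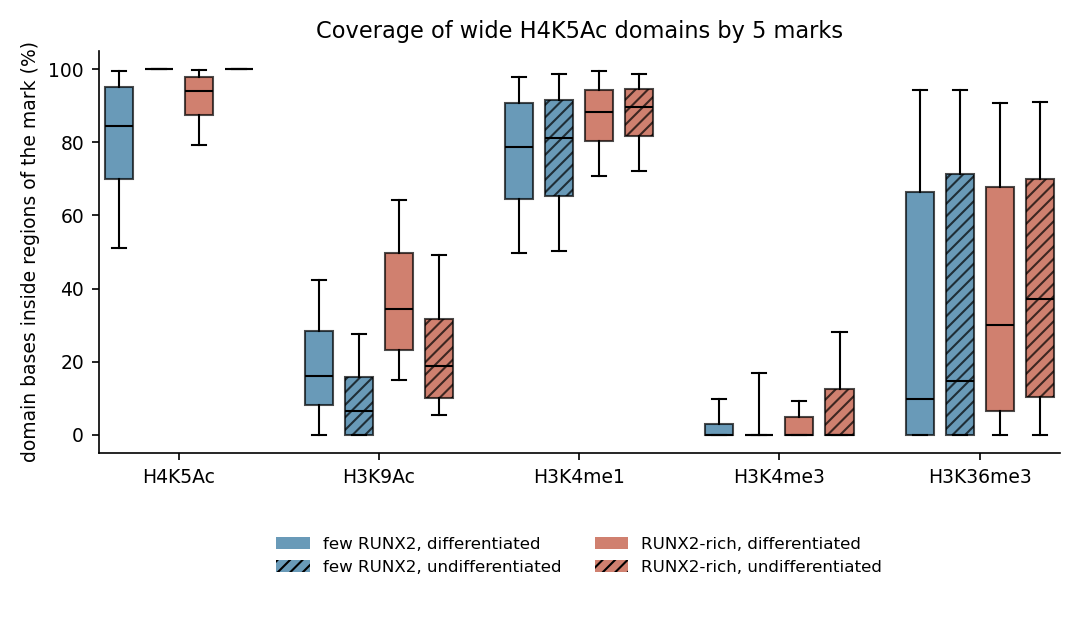
Percent of the bases of each wide domain inside regions of 5 marks, as boxes of the quartiles with the median line and whiskers at the 10th and 90th percentiles, for few-RUNX2 (blue, n = 1349) and RUNX2-rich (red, n = 294) domains in differentiated (plain) and undifferentiated (hatched) cells. H4K5Ac is 100% in undifferentiated cells because it defined the domains, and median H3K9Ac in few-RUNX2 domains is 16.1% in differentiated cells and 6.60% in undifferentiated cells.

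In undifferentiated cells 9 of the 1349 domains carried H3K4me3 on over 50% of their bases, and the 5 with most are described here. Ahnak, a large scaffold protein gene, and Eef1g, a translation elongation factor gene, shared a domain of 38.0 kb with H3K4me3 on 23.9% of it in differentiated cells and 92.7% in undifferentiated cells. The 85.3 kb domain of Sfi1 and Eif4enif1 (chr11:3019991-3105287) had the highest H4K5Ac score of the undifferentiated list, and each of the 5 marks covered over 78% of it in both states. A domain without a protein-coding gene, chr15:85482056-85523486, was alike, with H3K4me3 on 60.2% in differentiated cells and 65.4% in undifferentiated cells. The part of signal common to all antibodies in these 2 domains was not tested. The other 2 of the 5 were at Runx1 and at Mllt10, a chromatin protein gene, where H3K4me3 covered 32.4% in differentiated cells and 57.8% in undifferentiated cells.

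C/EBPβ had 2718 peaks in the few-RUNX2 domains in undifferentiated cells, beside 1807 of RUNX2, whose number the choice of the domains limits. At least 1 C/EBPβ peak lay in 82.1% of few-RUNX2 domains (interval 79.9 to 84.1), against 98.3% of RUNX2-rich domains and 21.8% of all H4K5Ac regions, most of which are much narrower. Per 10 kb there were 0.414 C/EBPβ peaks in few-RUNX2 domains, 0.651 in RUNX2-rich domains and 0.413 over all H4K5Ac regions. The difference of -16.2 points (interval -18.6 to -13.3) was -4.93 points among domains of 60000 bp or more. C/EBPβ peaks that overlapped RUNX2 peaks enter this difference, and their part in it was not tested. Of the 328 domains without RUNX2, 193 had C/EBPβ, and 92 domains had neither factor in either state. The letters TTGCNNAA or TTNNGCAA, a C/EBP-like pattern on both strands, stood in 38.2% of the C/EBPβ peaks and 9.82% of the windows of the same length 1 kb downstream.

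The domains with most C/EBPβ in undifferentiated cells lost much of it. The 5 were Glis3 with 2 peaks in differentiated cells and 15 in undifferentiated cells, a domain over Dgki near Ptn with 7 and 13, Dcn with 8 and 12, a domain inside Rad51l1 with 5 and 12, and Cyp1b1 with 0 and 11, each given with differentiated cells ahead of undifferentiated cells. The Cyp1b1 domain (102 kb), named for a cytochrome P450 gene, nevertheless kept 92.8% of its H4K5Ac, and its H3K9Ac covered 27.8% in differentiated cells and 13.0% in undifferentiated cells. These domains were picked for their high undifferentiated count, so the lower one is a description.

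RUNX2 peaks in few-RUNX2 domains were mostly far from promoters. Within 1 kb of a TSS lay 7.64% of them (interval 6.45 to 8.96), against 7.11% in RUNX2-rich domains and 32.3% in H4K5Ac regions under 30000 bp. The median distance to a TSS was 46.7 kb in few-RUNX2 domains, and 33.0 kb in RUNX2-rich domains. A C/EBPβ peak overlapped 43.5% of them, which differed from the 46.2% of RUNX2-rich domains by -2.68 points (interval -5.98 to 0.626) and from the 26.7% of narrower regions by 16.8 points (interval 14.4 to 19.3). For promoter position and C/EBPβ overlap the intervals against RUNX2-rich domains included 0, with differences of up to 2.27 and 5.98 points inside them.

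In differentiated cells the few-RUNX2 domains held 1055 RUNX2 peaks, of which 280 were gained, against 1807 in undifferentiated cells. Over the whole lists RUNX2 had 6272 peaks in differentiated cells and 12661 in undifferentiated cells, so the factor's whole list was shorter, and whether depth or enrichment differed between the libraries was not tested. Of the 1807 peaks, 773 (42.8%, interval 40.5 to 45.1) overlapped a differentiated peak, beside 36.8% of all RUNX2 peaks in H4K5Ac regions. The share in RUNX2-rich domains was 43.2%, a difference of -0.412 points (interval -3.70 to 2.88), and the sign turned between widths: it was -12.7 points (-20.8 to -4.43) among domains under 40000 bp and 7.75 points (1.34 to 14.0) among those of 40000 to 60000 bp. Against narrower H4K5Ac regions, where 34.3% were kept, the few-RUNX2 domains were 8.45 points higher (interval 5.98 to 10.95).

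RUNX2 peaks that shared their site with C/EBPβ in undifferentiated cells were kept more often. Of the 786 with a C/EBPβ peak 52.7% were kept, and of the 1021 without one 35.2%, a difference of 17.5 points (interval 12.9 to 22.0). For C/EBPβ no such difference was seen beyond counting error: 38.4% of its peaks that overlapped RUNX2 were kept (interval 35.0 to 41.9), and 40.3% of the others (interval 38.1 to 42.5). Peak strength could not be taken into account, because the deposited score of every RUNX2 and C/EBPβ peak was 0. H3K9Ac lay at 83.5% of the 1807 RUNX2 sites in differentiated cells and at 52.7% in undifferentiated cells.

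A smaller share of few-RUNX2 than of RUNX2-rich domains, which are wider, held a new RUNX2 peak. At least 1 gained peak lay in 17.3% of few-RUNX2 domains (interval 15.3 to 19.4), against 28.9% of RUNX2-rich domains, 3.11% of all H4K5Ac regions and 19.4% of all wide domains. The difference of -11.6 points (interval -17.4 to -6.32) was -7.84 points (-17.0 to 0.0607) where both kinds had H4K5Ac scores of 200 to 500, an alternative added after seeing the data, and its sign turned to 2.56 points (-8.22 to 10.4) among domains of 40000 to 60000 bp. RUNX2 had more peaks in differentiated than in undifferentiated cells in 121 domains (8.97%), beside 2.30% of all H4K5Ac regions, most of which are much narrower. It had fewer in 647 (48.0%), beside 14.0%, a count that the limit on undifferentiated peaks shapes. Per length, untested, the new RUNX2 peaks lay close in density, with 280 in the few-RUNX2 domains (0.0427 per 10 kb) and 112 in the RUNX2-rich ones (0.0438 per 10 kb), and they made up 26.5% and 13.3% of the RUNX2 peaks of differentiated cells there. Of the 1021 few-RUNX2 domains with a RUNX2 peak in undifferentiated cells, 360 lost every peak, beside 27 of the 294 RUNX2-rich domains. Of the 328 without RUNX2, 47 gained it. In differentiated cells 16 of the 1349 had 4 or more peaks, beside 91 of the 294. The limit of fewer than 4 undifferentiated peaks shapes these counts too, and they carry no test. Of the 9 few-RUNX2 domains with most gained peaks (3 each), the 5 widest included the Pappa2 and Astn1 domain and the Ptgis domain. The others of the 5 were a domain inside Adamtsl3 and 2 intergenic domains on chromosomes 1 and 2, 210 and 240 kb from a TSS.

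C/EBPβ had 1722 peaks in the few-RUNX2 domains in differentiated cells and 2718 in undifferentiated cells. Of the 2718, 39.7% (interval 37.9 to 41.6) were kept, against 38.2% in RUNX2-rich domains and 43.4% of all C/EBPβ peaks in H4K5Ac regions. The difference between the 2 kinds of wide domain was 1.52 points (interval -1.46 to 4.48), so differences of up to 4.48 points lie within the interval. Per domain, C/EBPβ had fewer peaks in differentiated cells in 690 (51.2%), against 81.6% of RUNX2-rich domains and 12.4% of all H4K5Ac regions. It had more in 207 (15.3%), against 7.14% and 5.02%. At least 1 gained C/EBPβ peak lay in 458 domains (33.95%), against 47.6% of RUNX2-rich domains, which are wider, and 6.62% of all H4K5Ac regions. Most of all H4K5Ac regions are much narrower than these domains. Per 10 kb C/EBPβ had 0.262 peaks in few-RUNX2 domains and 0.274 over all H4K5Ac regions in differentiated cells. Narrower H4K5Ac regions kept 45.4%, and the few-RUNX2 domains were lower by 5.65 points, with an interval of -7.72 to -3.54.

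H4K5Ac itself persisted in part. In differentiated cells it covered a median of 84.4% of the few-RUNX2 domains, against 93.9% of RUNX2-rich domains. Coverage was 90% or more in 514 domains (38.1%, interval 35.5 to 40.8), 50 to 90% in 710, under 50% in 110, and none in 15 (1.11%), beside 28.5% with none among all H4K5Ac regions. H4K5Ac was left on 50% or fewer of the bases in 125 (9.27%), against 0.340% of RUNX2-rich domains, a difference of 8.93 points (interval 6.81 to 10.6). Over all H4K5Ac regions, most of which are much narrower, that share was 35.5%. Among RUNX2-rich domains 66.7% kept 90% or more, as did 29.8% of all H4K5Ac regions and 43.2% of all wide domains. The difference of -28.6 points (interval -34.3 to -22.4) was -13.3 points (-22.7 to -3.39) where both kinds had H4K5Ac scores of 200 to 500, an alternative added after seeing the data. Since the domains were defined in undifferentiated cells, only a loss could be seen, and the whole H4K5Ac list covered 265 Mb in differentiated cells and 340 Mb in undifferentiated cells.

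Within their bounds, 789 of the 1349 (58.5%) held 2 to 4 differentiated H4K5Ac regions, against 53.1% of RUNX2-rich domains, and 47 (3.48%) held 5 or more, against 8.16% of RUNX2-rich domains. A single such region stood in 498, and 626 (46.4%) still overlapped a differentiated region of 30000 bp or more, as did 85.0% of RUNX2-rich domains. Of the 15 domains without any H4K5Ac in differentiated cells, 11 had no RUNX2 peak in undifferentiated cells. The 5 widest of them lay outside genes, and 3 of these 5 stood near each other on chromosome 5, between 46891543 and 47152749, 643 to 849 kb from the nearest TSS, that of Lcorl. None of those 3 had H3K9Ac, RUNX2 or C/EBPβ in either state. A further one, of 51.7 kb on chromosome 19, was 37.2 kb from Dkk1, a secreted inhibitor of Wnt signalling.

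H3K9Ac spread in the same domains. Its median coverage in few-RUNX2 domains was 16.1% in differentiated cells and 6.60% in undifferentiated cells, while over the whole lists it covered 86.5 Mb in differentiated cells and 52.5 Mb in undifferentiated cells. At least 2 times as many H3K9Ac bases, or any where there had been none, were found in 622 few-RUNX2 domains (46.1%), 36.7% of RUNX2-rich domains, 17.0% of all H4K5Ac regions and 44.4% of all wide domains. The difference of 9.37 points (interval 3.14 to 15.3) turned to -16.1 points (-22.3 to -9.89) with only the regions of each mark list whose scores were above its median, and to -1.44 points with a limit of fewer than 2 RUNX2 peaks. In undifferentiated cells 33.0% of few-RUNX2 and 3.06% of RUNX2-rich domains had no H3K9Ac, and there any later base counted as gain. Among few-RUNX2 domains gain was found in 36.4% of the 904 with the mark and 65.8% of the 445 without. The part of this starting coverage in the difference was not tested. Loss of H3K9Ac to 50% or fewer of the bases was found in 7 of the 1349 (0.519%), beside 0.269% of all H4K5Ac regions.

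The methylation marks changed in fewer domains. H3K4me3 fell to 50% or fewer of its bases in 113 few-RUNX2 domains (8.38%) and in 25.5% of RUNX2-rich ones, beside 2.58% of all H4K5Ac regions. Among domains that had the mark in undifferentiated cells the shares were 37.2% of 304 few-RUNX2 and 56.4% of 133 RUNX2-rich domains, a difference of -19.2 points (interval -28.9 to -9.07), beside 1074 of all 6710 H4K5Ac regions with it. It covered at least 2 times as many bases in 56 (4.15%), beside 3.61% of all H4K5Ac regions. H3K36me3 fell to 50% or fewer in 191 (14.2%) and in 12.6% of RUNX2-rich domains, beside 4.99% of all H4K5Ac regions. That difference was 1.57 points (interval -3.05 to 5.43). Among domains with the mark the shares were 21.6% of 886 few-RUNX2 and 14.45% of 256 RUNX2-rich domains, beside 11.8% of all H4K5Ac regions with it. There the difference was 7.10 points (interval 1.63 to 11.8). H3K36me3 reached 2 times or more in 82 (6.08%) and in 5.78% of RUNX2-rich domains, beside 4.30%. H3K4me1 kept its extent, with 19 domains at 2 times or more, beside 7.64% of all H4K5Ac regions, and 5 at 50% or fewer, beside 4.64%.

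**Figure D4:**
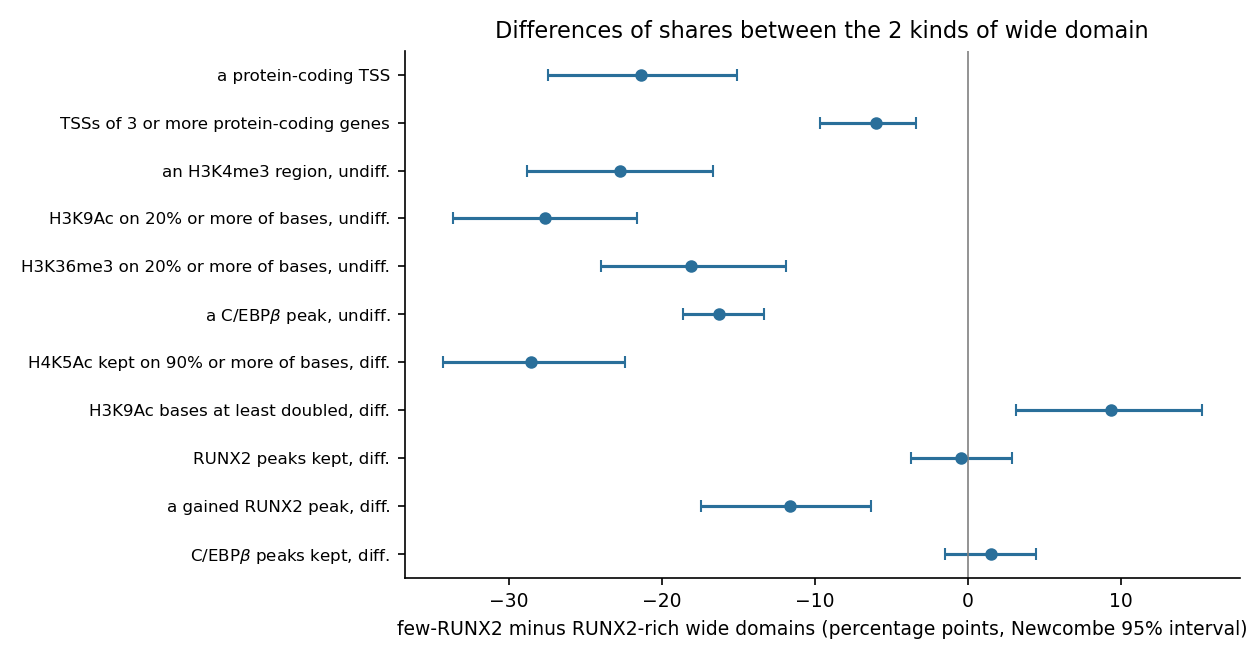
Differences of 11 shares between few-RUNX2 (n = 1349) and RUNX2-rich (n = 294) wide domains in percentage points, with Newcombe 95% intervals as bars; positive values mean a higher share in few-RUNX2 domains. H4K5Ac kept in differentiated cells lies lowest at -28.6 points, H3K9Ac gain (which counts any H3K9Ac after none) lies above 0 at 9.37 points, and the kept shares of RUNX2 and C/EBPβ peaks have intervals across 0.

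The few-RUNX2 domains were graded among themselves. With 0, 1, 2 and 3 RUNX2 peaks in undifferentiated cells, 26.5%, 35.8%, 43.1% and 52.3% kept H4K5Ac on 90% or more of their bases in differentiated cells. C/EBPβ was present in 58.8%, 85.1%, 91.0% and 96.4%, and H3K9Ac covered 20% or more of the bases in 8.84%, 15.2%, 24.9% and 28.6%. The share with a TSS was 31.7%, 34.9%, 42.8% and 36.8% and did not follow that order, nor did the share of RUNX2 peaks kept, at 43.5%, 43.5% and 41.5% with 1, 2 and 3 peaks. Median width went along with the count, at 37391, 39095, 43506 and 50033 bp, as did the median H4K5Ac score, at 137, 180, 238 and 294. Many of the RUNX2 peaks overlapped a C/EBPβ peak, so C/EBPβ presence is not independent of the RUNX2 count. The part of width, score and this overlap in the gradient was not tested.

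**Figure D5:**
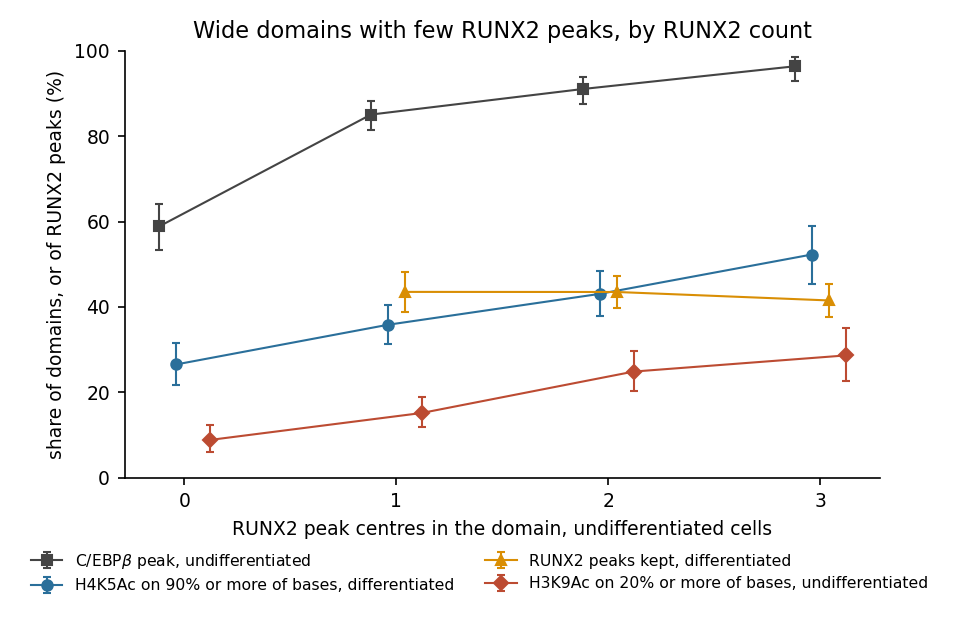
Shares of few-RUNX2 wide domains (or of their RUNX2 peaks, triangles) by the number of undifferentiated RUNX2 peaks in the domain, with exact 95% intervals as bars; n = 328, 455, 346 and 220 domains from 0 to 3 peaks. C/EBPβ presence, H4K5Ac kept and H3K9Ac coverage are higher with more RUNX2 peaks, while the kept share of RUNX2 peaks stays between 41.5% and 43.5%.

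Within the 1349, other features went with H4K5Ac kept on 90% or more of the bases. It was kept in 41.4% of the 904 domains with any H3K9Ac in undifferentiated cells and 31.5% of the 445 without, a difference of 9.91 points (interval 4.44 to 15.2). Domains with H3K4me1 on 50% or more of their bases kept it in 39.8%, against 23.1% of the others, a difference of 16.6 points (interval 8.33 to 23.5). Holding a TSS went with no such difference beyond the interval: 37.0% with and 38.7% without, at -1.75 points (interval -7.05 to 3.66). H3K9Ac gain was found in 32.5% of domains with a TSS and 53.9% of those without, a difference of -21.4 points (interval -26.6 to -16.0). Gain counted any H3K9Ac after none, and the starting coverage differed between these domains. Its median was 15.4% with a TSS, 4.50% without a TSS inside gene bodies and 0% away from genes. The part of that starting coverage in the difference was not tested.

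The domains were unevenly spread over the genome. Per 100 Mb there were 121 on chromosome 19, 88.3 on chromosome 3 and 79.2 on chromosome 15. Against these stood 6.00 on X and 29.5 on chromosome 7, the lowest autosome on that measure. As shares of each chromosome's H4K5Ac regions they were 5.04%, 5.59%, 4.39%, 1.19% and 2.10% in the same order, beside 1349 of 41585 over all. Chromosome 18 was the lowest autosome by that share, at 2.04%. The few-RUNX2 domains made up all 41 wide domains of chromosome 14, beside 1349 of 1643 over all chromosomes. Another H4K5Ac region lay within 5 kb of 984 of the 1349, and for 212 that neighbour was itself a wide domain, so the bounds of a domain depend on where the authors' peak caller ended it. In sequence they had a median GC content of 42.5%, against 44.9% in RUNX2-rich domains, and 8.96 CpG per kb, against 10.8.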

How the data were processed

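The authors aligned reads with Bowtie and called peaks with HOMER on mm9, per the submitters' processing notes; the versions and settings of these tools are not stated in the labels. Each of the 14 deposited lists gives merged replicate peaks with a score, the authors' own value per peak, which was 0 for RUNX2 and C/EBPβ and was used only within a list. Read depth is unknown. The 2 inputs were not analysed here; the differentiated input is labelled with 100 nM 1,25(OH)2D3. The treatment label of the differentiated H3K36me3 sample is garbled, so its state came from its title, and the protocol writes H3K5Ac for the antibody labelled H4K5Ac.

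Overlaps were computed in Python 3.11 with pandas 2.3.3 and SciPy 1.17.1, checked on simulated data, against assembly NCBIM37 (mm9) and GENCODE vM1 with 22350 protein-coding genes and 45993 starts. Factor peaks were placed by their centres, and 1 start below 0 was clipped. A peak was kept if it overlapped a peak of the other state by 1 bp or more. Shares have exact Clopper-Pearson 95% intervals and differences Newcombe intervals, and a difference was called where its interval left out 0. Named domains were the 10 widest, and the 5 each that were widest without RUNX2, had most C/EBPβ, lost most H4K5Ac, gained most RUNX2 or had most H3K4me3. Domains and gene lists were chosen with earlier results of these data known.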

Additional observations from a re-analysis of the deposited data

How the results depend on the processing

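Over width limits, RUNX2 limits, joined regions, score filters, other thresholds and autosomes only, 92 of 102 recomputed differences of shares kept their direction and whether their interval left out 0. Counting RUNX2 peaks by overlap and taking H4K5Ac regions of above-median score returned the same domains, so these 2 alternatives test nothing and are not counted. Fewer starts, less H3K4me3, H3K9Ac, H3K36me3 and C/EBPβ, and less H4K5Ac kept in few-RUNX2 than in RUNX2-rich domains held under each of the other alternatives run. The number of domains was 712 at 40000 bp, 637 below 40000 bp and 783 with fewer than 2 RUNX2 peaks. The difference in H3K9Ac gain was -1.44 points with fewer than 2 RUNX2 peaks, -16.1 with mark regions of above-median score, -3.13 with a 1.5-fold threshold, and 5.44 at like H4K5Ac scores. The difference in RUNX2 peaks kept was 2.56 points at 40000 bp, 0.622 with fewer than 2 peaks, -12.7 below 40000 bp and 2.83 at like scores. Starts of 3 or more genes differed by -3.87 points below 40000 bp, and gained RUNX2 by -7.84 points at like scores. For these the cause was not tested. The 2 alternatives of like scores (H4K5Ac scores of 200 to 500) and outermost gene starts were added after seeing the data. No paired analysis was possible because each antibody and state is a single merged list. Unknown depth limits every comparison between states.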

Other observations

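The 1349 domains also held starts of 50 of 1273 lincRNA genes, 100 of 2572 genes annotated as processed transcripts and 40 of 1576 miRNA genes. Of the 155 domains with such a start, 72 had no protein-coding TSS. After Lpp, the gene bodies with most few-RUNX2 domain bases were those of Glis3 (414 kb), Rad51l1 (368 kb), Bre (304 kb) and Sema3a (270 kb). In the Bre domains H3K36me3 covered 75.9% of the bases in differentiated cells and 45.0% in undifferentiated cells, and in the Rad51l1 domains 12.6% in differentiated cells and 38.0% in undifferentiated cells. These genes were chosen after their values were seen, and no test was run on them.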
